A study of Mus musculus with 2 samples.

Results

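Macrophages of mouse pancreatic islets that carried much surface CD9 were compared by how much surface CD206 they also carried. A macrophage was a cell with at least 200 genes, at most 10% mitochondrial UMIs, at least 5000 RNA UMIs, and the complement genes C1qa, C1qb and C1qc together at 2000 CPM or more (UMIs of a gene per 1000000 RNA UMIs). A UMI, or unique molecular identifier, stands for 1 captured molecule. Of 2237 barcodes, 1706 met this gate. They were ranked by CD9 antibody count within deciles of their RNA total, and the highest tercile, 566 cells, is called CD9-high. The groups were chosen by CD206 antibody counts: among these cells, 203 held at least 25 CD206 antibody counts (CD206-positive) and 188 held at most 8 (CD206-low), which makes 391 cells in the comparison. The other 175 cells lay between the cut-offs and are called intermediate.

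The islets came from 6 to 8 males of strain C57BL/6J, all wild-type, and were pooled and dissociated. From them live (DAPI-), Epcam-, CD45+ immune cells had been sorted, then stained with DNA-barcoded TotalSeq-B antibodies against CD9 and CD206. The mice's age and treatment are not given in the sources used here, and both CD206 groups come from the same pool. RNA and antibody tags were read as 2 libraries of the same cells, and all 2237 barcodes held UMIs of both. With 1 pooled sample there is no replicate, so no test was made, and every interval is a 95% interval that covers counting error only.

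CD206 is the macrophage mannose receptor, a C-type lectin that is encoded by Mrc1 and carries mannosylated glycoproteins and collagen fragments into the cell. It cycles between the plasma membrane and endosomes, and it is widely used, together with the galactose lectin Mgl2, as a marker of alternatively activated macrophages and of macrophages resident in connective tissue. CD9 is a tetraspanin, a small membrane protein that organises integrins and other partners in the cell surface. Islets hold resident macrophages that lie next to the endocrine cells and vessels and present antigen.

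The antibody counts rest on a short DNA barcode carried by each antibody. Both barcodes are shown because the groups were made from them. They are written 5′ to 3′, and capitals mark the 14 of 15 positions at which they differ, so that 1 position is shared.
CD206: tCAACTCGGTGTTGC
CD9: tAGCAGTCACTCCTA

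The counts that chose the cells are given as a description. CD206-positive cells held 25 to 822 CD206 UMIs with a median of 42, and CD206-low cells held 0 to 8 with a median of 4. Relative to RNA the medians were 1.86 and 0.221 CD206 UMIs per 1000 RNA UMIs. The cut-offs divide a continuous range. Mrc1 mRNA stood at 51.8 CPM (38.6 to 68.1) in the 43 cells with 20 to 24 CD206 UMIs, just below the upper cut-off, and at 35.1 CPM (25.2 to 47.6) in the 38 cells with 25 to 29, just above it. At the lower cut-off it stood at 11.7 CPM (5.84 to 20.9) in the 43 cells with 7 or 8 and at 40.9 CPM (27.8 to 58.1) in the 39 cells with 9 or 10. The lower cut-off therefore lay at a larger step in Mrc1 mRNA than the upper one. The lowest CD9 count inside the CD9-high tercile ranged from 350 UMIs in the shallowest RNA decile, where the highest count outside was 349, to 5576 in the deepest, where it was 5543.

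**Figure D1:**
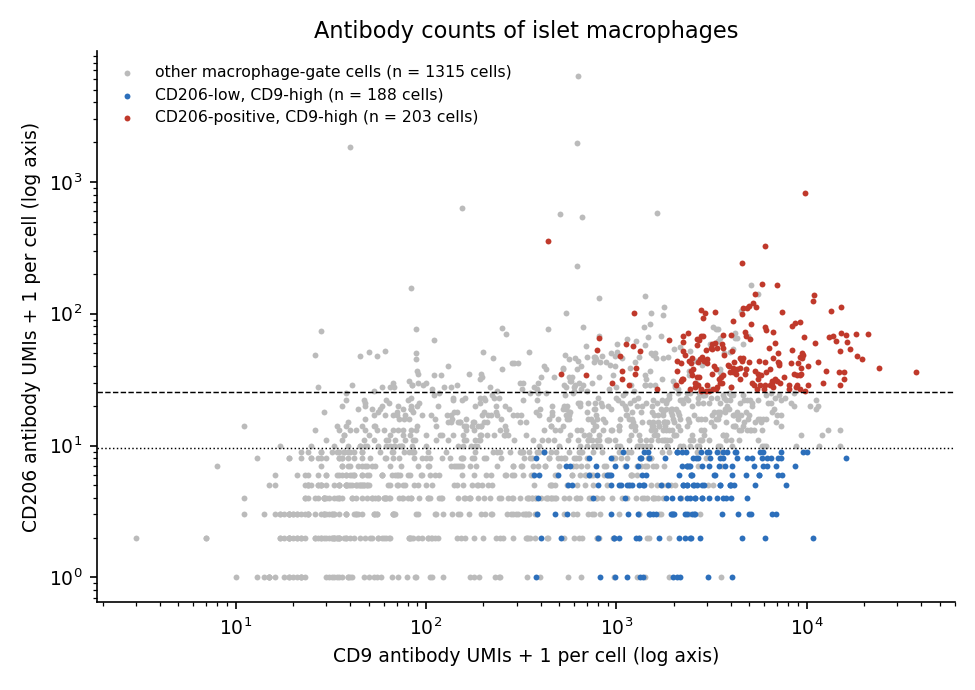
CD206 against CD9 antibody UMIs (each plus 1, log axes) for the 1706 macrophages, with the dashed and dotted lines at the cut-offs of 25 and 8 CD206 UMIs. The 203 CD206-positive (red) and 188 CD206-low (blue) CD9-high cells lie above and below the lines, and the red cells also reach further to the right (median 4583 against 2348.5 CD9 UMIs).

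CD206-positive cells were more frequent in the higher CD9 terciles, which were ranked within RNA deciles and had median RNA totals of 20957, 20916.5 and 20937.5 UMIs from highest to lowest. At least 25 CD206 UMIs were found on 35.9% of CD9-high cells (31.9 to 40.0%, exact Clopper-Pearson interval), on 20.5% of the 570 CD9-middle cells (17.3 to 24.1%) and on 10.5% of the 570 CD9-lowest cells (8.13 to 13.3%). In 103 lymphocytes (at least 5 UMIs over T, B and NK cell genes and C1q under 500 CPM), which should lack CD206, 1 cell reached 25 (0.971%, 0.0246 to 5.29%) and the median was 0. Within the CD9-high cells the median CD9 count was 4583 UMIs in CD206-positive, 3143 in intermediate and 2348.5 in CD206-low cells, and the median RNA total was 23238, 20944 and 18488 UMIs. Over the 566 CD9-high cells, which share both libraries, Spearman's rho of CD206 with CD9 counts was 0.403 and with RNA totals 0.325, neither adjusted for the other. These antibody counts chose the cells, so both are a description. The groups thus differ in CD9 and in depth as well as in CD206, and ratios weighted to equal CD9 or equal RNA depth are given below for some of the genes that lead the comparison.

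Macrophage genes that the gate did not use were present in both groups. The colony-stimulating factor receptor gene Csf1r stood at 356 and 333 CPM, and Adgre1, which encodes F4/80, at 325 and 402 CPM, against 12.3 and 15 CPM in lymphocytes. C1qa, whose level the gate fixed, stood at 2667 and 2616 CPM. The share of mitochondrial UMIs had medians of 1.35% and 1.44%, and the doublet score medians of 0.0708 and 0.0586.

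Mrc1 mRNA followed the antibody. CD206-positive cells held 295 Mrc1 UMIs and CD206-low cells 40, or 52.1 CPM (46.3 to 58.4) against 11.2 CPM (7.99 to 15.2). The ratio was 4.66 (3.34 to 6.66, exact conditional binomial interval), and the intermediate cells lay between at 37.3 CPM. Single cells held 0 to 23 Mrc1 UMIs (median 1) in the positive group and 0 to 4 (median 0) in the low group. The groups overlap cell by cell: 119 of 203 positive cells and 21 of 188 low cells held a Mrc1 UMI. With every cell thinned to 5000 RNA UMIs, a Mrc1 UMI was found in 19.7% of positive and 3.72% of low cells and in 0 of 103 lymphocytes (0 to 3.52%), whose median RNA total was 9878 UMIs, against 58.6% and 11.2% of the CD206 groups before thinning. Over 6 bins of CD206 count (0 to 4, 5 to 8, 9 to 14, 15 to 24, 25 to 49, 50 or more), Mrc1 stood at 9.28, 13.2, 34.1, 39.9, 36.0 and 78.2 CPM. The level was thus similar from 9 to 49 CD206 UMIs, with overlapping intervals, and higher above. Weighted to equal CD9 the ratio was 5.87, and weighted to equal RNA depth 6.19.

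Cd9 mRNA relative to RNA totals, in contrast, was close between the groups. It stood at 405 CPM (389 to 422) in CD206-positive, 364 CPM in intermediate and 374 CPM (354 to 394) in CD206-low cells, a ratio of 1.08 (1.01 to 1.16). Also relative to RNA, the median CD9 antibody count was 182 UMIs per 1000 RNA UMIs in CD206-positive and 124 in CD206-low cells. Per cell and unscaled, the median Cd9 mRNA count was 8 and 5 UMIs. Weighted to equal CD9 antibody the ratio was 0.92. Of the 13 tetraspanin genes with at least 50 UMIs in the groups together, 1 differed by 1.5-fold or more, near the 6.93% of all genes. It was Tspan3, at 35.1 against 19.3 CPM (ratio 1.82, 1.38 to 2.43). Cd63 and Cd81, tetraspanins of endosomes and the plasma membrane, had ratios of 0.80 and 0.92.

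**Figure D2:**
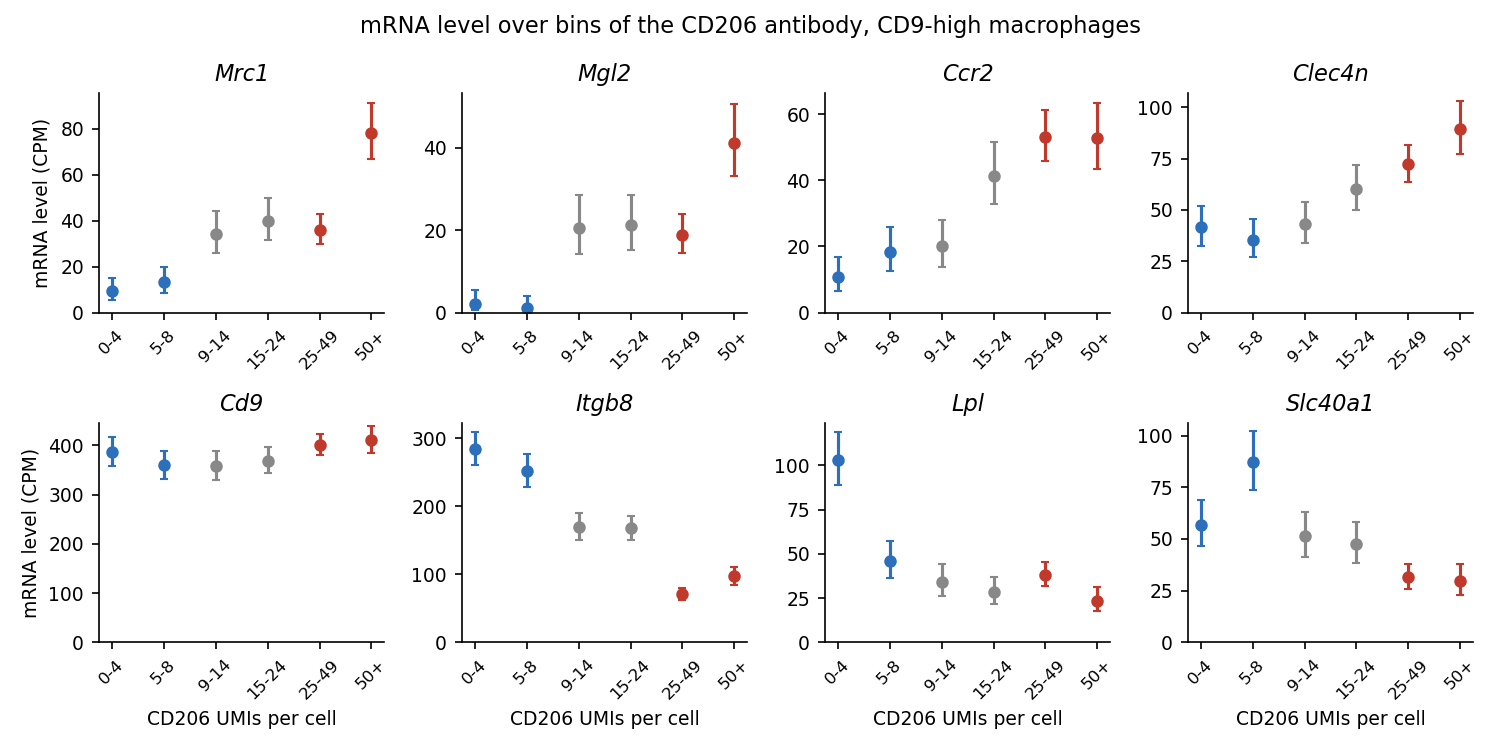
mRNA level (CPM, points, with exact Poisson 95% intervals) of 8 genes over 6 bins of CD206 antibody UMIs per cell in CD9-high macrophages; blue bins form the CD206-low group, grey the intermediate cells and red the CD206-positive group. Mrc1 is at 9.28 CPM in the lowest and 78.2 CPM in the highest bin, Itgb8 at 284 and 96.8 CPM, and Cd9 at 387 and 412 CPM.

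Most genes lay close to equal levels. Of 8612 genes with at least 50 UMIs in the summed groups, 375 were at least 1.5-fold higher in CD206-positive cells (4.35%) and 222 at least 1.5-fold lower (2.58%), together 6.93%. The median log2 ratio was 0.01, with quartiles of −0.15 and 0.16. The shares depended on UMIs per gene: of 5264 genes with at least 200 UMIs, 82 were higher and 31 lower. With no minimum, 1701 of 13992 genes were higher and 2006 lower, so the excess of higher genes also depended on the minimum. The shares over all genes are therefore only a rough baseline for lists of scarce or abundant genes. In 42 of the higher and 27 of the lower genes a single cell gave over 20% of the UMIs.

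Flrt3 and Mgl2, which led on the higher side, were few in molecules, nearly all of which lay in CD206-positive cells. Flrt3, a leucine-rich repeat adhesion protein, held 119 UMIs in CD206-positive and 3 in CD206-low cells, a ratio of 25.1 (8.37 to 123). Its UMIs came from 29 positive cells (0 to 20 per cell) and 3 low cells with 1 each. With cells ranked by CD206 within RNA deciles, highest against lowest tercile, the ratio was 2.10. Mgl2, the galactose lectin also known as CD301b, held 155 and 6 UMIs, or 27.4 against 1.68 CPM, a ratio of 16.3 (7.33 to 45.2). Mgl2 UMIs were found in 44 positive cells (0 to 28 per cell) and 5 low cells (0 to 2), and Mrc1 was found in 31 of the 44 and in 0 of the 5, against 119 of all 203 positive and 21 of all 188 low cells. The intermediate cells, at 20.9 CPM, were close to the positive group: Mgl2 stood at 1.15 CPM at 5 to 8 CD206 UMIs and at 20.6 CPM at 9 to 14. Its ratio was 25.5 at equal CD9, 36.9 at equal RNA depth and 7.03 for CD206 ranked within RNA deciles.

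Ccr2, the receptor for the monocyte chemokine CCL2, followed with 300 and 52 UMIs, or 53.0 against 14.5 CPM (ratio 3.65, 2.71 to 4.99). Over the 6 CD206 bins it stood at 10.9, 18.3, 20.02, 41.4, 53.1 and 52.8 CPM. A Ccr2 UMI was held by 89 of 203 positive cells (0 to 19 UMIs) and 28 of 188 low cells (0 to 4). Lymphocytes, many of which express Ccr2 themselves, stood at 109 CPM. Weighted to equal CD9 the ratio was 3.45 and to equal RNA depth 3.56.

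The other genes with the highest lower bounds had ratios between 2.06 and 3.93. Among them were Fcrls, a scavenger receptor-like protein (3.47, 2.35 to 5.26), the adhesion protein Nectin1 (3.44, 2.001 to 6.28), the non-classical MHC class I gene H2-M2 (2.98, 2.55 to 3.48) and Mefv, which encodes the inflammasome sensor pyrin (2.67, 1.88 to 3.89). Fcrls stood at 7.09 to 13.4 CPM in the 5 lower CD206 bins and at 56.9 CPM in the cells with 50 or more. H2-M2 stood at 55.7 to 59.6 CPM in the 4 bins below 25 CD206 UMIs and at 159 and 178 CPM in the others. Fap, a surface serine protease, had a ratio of 2.06 (1.77 to 2.41) and joined Tmem267 (3.48), Kctd19 (2.88) and the predicted gene Gm15726 (2.62). Fap stood at 126 CPM in CD206-positive, 159 CPM in intermediate and 61.2 CPM in CD206-low cells. Its UMIs came from 38 positive and 20 low cells, and without 1 cell its ratio was 1.61. Over the CD206 bins Fap was highest, at 228 CPM, at 9 to 14 UMIs. Smc2, a condensin subunit (3.93, 2.22 to 7.48), and the proliferation marker Mki67 (2.34, 1.91 to 2.88) belong to cell division. Fap, Kctd19, Mki67 and Smc2 were under 1.5-fold when CD206 was ranked within RNA deciles, and Mki67 also at equal CD9 (1.35) and without the cells richest in cycling RNA (1.28). Tmem267 was under 1.5-fold with the positive group restricted to 50 or more CD206 UMIs. At equal CD9 the ratio of Mefv was 1.51, only just past 1.5-fold.

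On the lower side Itgb8 led. It encodes an integrin beta chain whose heterodimer activates latent TGF-beta. It held 457 UMIs in CD206-positive and 960 in CD206-low cells, or 80.7 CPM against 268 CPM, with 168 CPM in the intermediate cells, and the ratio was 0.30 (0.27 to 0.34). Cells held 0 to 48 Itgb8 UMIs (median 0) in the positive group and 0 to 109 (median 1) in the low group, with at least 1 UMI in 78 of 203 and 113 of 188 cells. Over the CD206 bins it stood at 284 and 251 CPM in the low group, 170 and 167 CPM in the intermediate cells and 70.8 and 96.8 CPM in the positive group. The ratio was 0.38 at equal CD9, 0.36 at equal RNA depth and 0.43 for CD206 ranked within RNA deciles.

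The other 14 lower genes had ratios between 0.335 and 0.59. The iron exporter gene Slc40a1 (ferroportin) stood at 30.7 against 71.5 CPM (ratio 0.43, 0.35 to 0.52). Lpl, which encodes lipoprotein lipase, stood at 32.7 against 75.2 CPM (0.43, 0.36 to 0.53), and over the bins it was highest, at 103 CPM, in cells with 0 to 4 CD206 UMIs and 45.8 CPM or lower above. Gdf15, a stress-induced cytokine, had a ratio of 0.42 (0.35 to 0.51), and the inflammatory cytokine gene Il1a 0.50 (0.44 to 0.56). Hs3st3a1, a heparan sulfate sulfotransferase, had 0.335, and Plau, which encodes urokinase, 0.59. The plexin Plxna4 had a ratio of 0.46, the semaphorin Sema4b 0.50, the GABA receptor subunit Gabbr2 0.485, Ptchd1 0.49 and the cadherin Fat3 0.335. Fbxo28, Arhgap6 and Zmynd15 had 0.50, 0.53 and 0.54. Fat3, Gabbr2, Plau and Plxna4 were within 1.5-fold when weighted to equal CD9, where Plxna4 stood at 1.13, and the last 3 also at equal RNA depth. Il1a was within 1.5-fold with at most 4 CD206 UMIs in the low group (log2 ratio −0.44) and in the highest CD9 quintile (−0.57), and Arhgap6 with CD9-high set by raw CD9 UMIs (−0.47) and in the highest CD9 quintile (−0.50).

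The same CD206 cut-offs were applied to macrophages outside the CD9-high tercile, whose cells played no part in choosing these genes. They hold 117 positive and 263 low cells in the CD9-middle tercile, and 60 and 373 in the CD9-lowest. These groups also differed in depth and CD9. Medians were 24266 against 18266 RNA UMIs and 1200 against 451 CD9 UMIs in the CD9-middle tercile. In the CD9-lowest they were 26488 against 19172 and 169 against 40. The ratios here are weighted for neither, and the 15 higher genes include Mrc1, which encodes CD206. Mrc1 had ratios of 11.9 (8.53 to 16.9) and 8.47 (6.10 to 11.9) there, against 4.66 in CD9-high cells. Of the 15 higher genes, 13 were at least 1.5-fold higher in the CD9-middle tercile, where 3.97% of all 8256 genes were. In the CD9-lowest tercile 8 of the 12 with 50 UMIs were, against 6.67% of 8347 genes, and 1, H2-M2, was at least 1.5-fold lower. Of the 15 lower genes, 7 were at least 1.5-fold lower in the CD9-middle tercile, against 7.1% of all genes, and 9 in the CD9-lowest, against 8.18%, with 0 higher by that fold in either.

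Gene by gene, the terciles were less uniform than the counts. Mgl2 had ratios of 16.3, 6.20 and 1.56 (0.86 to 2.71) from the CD9-high to the CD9-lowest tercile, Ccr2 3.65, 1.66 and 5.53, and Flrt3 25.1, 6.12 and 5.43 (the last on 48 UMIs). Below 50 UMIs in the CD9-lowest tercile, Fcrls had 4.81 (2.52 to 9.20) and Nectin1 0.164 (0.0040 to 0.992), with 1 UMI in positive and 28 in low cells. Itgb8 was lower in each (0.30, 0.58 and 0.41), as were Lpl (0.43, 0.53 and 0.43) and Fat3 (0.335, 0.367 and 0.245). Gdf15 and Il1a, lower in CD9-high cells, had ratios of 1.12 and 1.47 in the CD9-middle and 1.33 and 1.22 in the CD9-lowest tercile. The differences between terciles were not tested.

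**Figure D3:**
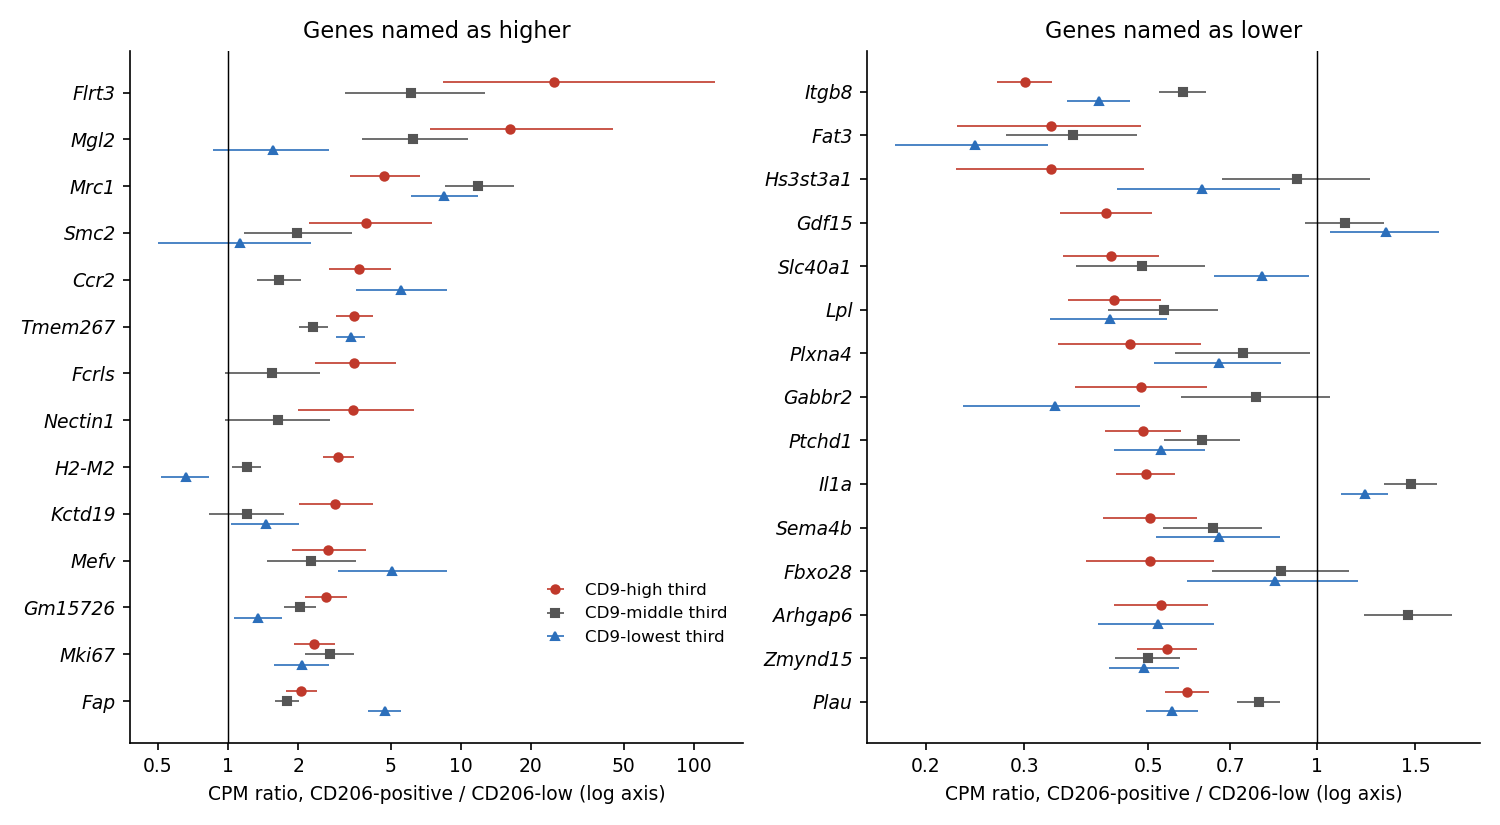
CPM ratio of CD206-positive over CD206-low cells (log axis, points, with 95% conditional binomial intervals) for 14 of the 15 higher genes and the 15 lower genes, in the CD9-high (red circles), CD9-middle (grey squares) and CD9-lowest (blue triangles) terciles, where each point rests on at least 50 UMIs. Mrc1 lies at 4.66, 11.9 and 8.47, whereas Il1a lies at 0.50, 1.47 and 1.22.

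Alternative activation genes, those induced by interleukin-4 and interleukin-13, were read as a list. Of 27 genes, 12 had at least 50 UMIs, 5 of these were at least 1.5-fold higher (Mrc1, Mgl2, Ccl22, Tgm2 and Klf4) and 0 lower, against 4.35% and 2.58% of all genes. The list's median log2 ratio was 0.33, against 0.01 for all genes. Count and median include Mrc1, which encodes the protein that chose the groups. They also include Mgl2, which reached 50 UMIs through CD206-positive cells (155 UMIs, against 6 in CD206-low cells). Tgm2, a transglutaminase, stood at 65.2 against 32.4 CPM (2.01, 1.63 to 2.50) and was found in 117 of 203 and 52 of 188 cells. Ccl22, a chemokine that attracts regulatory T cells, had a ratio of 2.31 (1.52 to 3.61), but 1 cell gave 24.4% of its UMIs and without it the ratio was 1.59. It was 1.08 with CD206 ranked within RNA deciles, and with CD9-high set by raw CD9 UMIs its log2 ratio was 0.15. Klf4, a transcription factor, had 1.76 (1.23 to 2.57), and 1.40 without 1 cell. Classical members of this programme were scarce in both groups. Arg1 held 2 UMIs in each, Chil3 1 in positive cells and 34, all in 1 cell, in the low group, and Retnla, Chil4, Ccl24, Alox15, Cd209e and Rnase2a held 0. The receptors and kinases through which interleukin-4, GM-CSF and M-CSF act differed little: 0 of 15 tested genes reached 1.5-fold, with Il4ra at a ratio of 0.90, Csf2rb at 1.30 and Stat6 at 1.06.

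CD206 belongs to the C-type lectin receptors. Of 20 listed genes, 16 were tested, 5 were at least 1.5-fold higher (Mrc1, Mgl2, Clec4n, Clec4b1 and Ly75; 4.35% of all genes) and 0 lower (2.58%), 11 were within 1.5-fold, and the median log2 ratio was 0.30. Clec4n, which encodes the fungal mannan receptor Dectin-2, stood at 78.8 against 38.6 CPM (2.04, 1.68 to 2.49). Over the CD206 bins it stood at 41.5, 35.5, 43.0, 60.1, 72.2 and 89.4 CPM, higher in each bin than the one below from 9 UMIs upward. Ly75, which encodes DEC-205, a relative of the mannose receptor, held 53 and 12 UMIs (2.79, 1.47 to 5.74), in 7 cells of the positive group, and Clec4b1 had a ratio of 1.74 (0.96 to 3.30). The lists of alternative activation and of lectins share Mrc1 and Mgl2, which were among the genes that led the whole comparison. Clec4d, Clec4e and the galectin Lgals3, each with over 2000 UMIs, had ratios of 1.08, 1.02 and 1.03.

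Mrc1 and Mgl2 were higher together, so the sequence from 250 bases before to 50 bases after their annotated starts is shown (RefSeq, GRCm38.p6, plus strand in both). Capitals mark GAGGAA, a sequence bound by the myeloid factor PU.1, or its reverse complement.
Mrc1, chr2:14229164-14229463: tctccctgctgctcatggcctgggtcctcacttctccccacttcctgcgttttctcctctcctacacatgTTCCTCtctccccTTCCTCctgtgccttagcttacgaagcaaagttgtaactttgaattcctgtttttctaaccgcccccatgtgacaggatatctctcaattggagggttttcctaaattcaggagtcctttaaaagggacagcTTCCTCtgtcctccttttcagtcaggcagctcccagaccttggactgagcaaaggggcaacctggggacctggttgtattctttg
Mgl2, chr11:70130107-70130406: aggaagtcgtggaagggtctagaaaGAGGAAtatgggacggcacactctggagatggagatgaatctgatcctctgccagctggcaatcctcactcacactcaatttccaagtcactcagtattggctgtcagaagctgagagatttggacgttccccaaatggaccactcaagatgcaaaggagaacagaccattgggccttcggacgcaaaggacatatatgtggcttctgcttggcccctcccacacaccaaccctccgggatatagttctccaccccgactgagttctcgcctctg

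The Mrc1 window holds 3 matches, at positions 71, 84 and 216 and all on the reverse strand, and the Mgl2 window 1, at position 26. The Flrt3 window holds 1 and the Itgb8 window 0. Searched on both strands, GAGGAA is found in 28.3% of all 32851 promoter windows of this length, so 1 match is common. The STAT-type palindrome, TTC and GAA with 4 bases of any kind between them, is in 6.95% of windows and was not found in these 4. Spi1, which encodes PU.1, stood at 467 CPM in CD206-positive and 510 CPM in CD206-low cells (ratio 0.91).

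Of 19 tested scavenger and endocytic receptors, 3 were at least 1.5-fold higher and 1 lower, against 4.35% and 2.58% of all genes (median log2 −0.07). Mertk, the receptor kinase through which macrophages take up dying cells, stood at 25.8 against 12 CPM (2.15, 1.52 to 3.09), the inhibitory Fc receptor gene Fcgr2b at 129 against 84.4 CPM (1.53, 1.33 to 1.75, past 1.5-fold in 7 of 15 alternatives), and Olr1 held 42 and 16 UMIs (1.66, 0.91 to 3.16). Cd36, the fatty acid and oxidised lipoprotein receptor, was lower at 319 against 483 CPM (0.66, 0.62 to 0.71), with 0.84 at equal CD9, and past 1.5-fold in 8 of 15 alternatives. None of the 19 tested endocytosis genes and none of the 21 lysosomal genes reached 1.5-fold either way, with median log2 ratios of −0.05 and −0.07. Of 17 tested genes of lipid-associated macrophages, 0 were higher and 2 lower (Lpl and Cd36), and Trem2, Gpnmb and Spp1 had ratios of 0.85, 0.86 and 1.18.

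Genes of stromal resident macrophages, in which CD206 is usually found beside Lyve1, Cd163 and Folr2, were few. Of 18 listed genes 8 had 50 UMIs, of which 4 were at least 1.5-fold higher (Mgl2, Igf1, Pf4 and Ednrb; 4.35% of all genes) and 0 lower (2.58%). The list's median log2 ratio was 0.31, and −0.03 at equal CD9. It was −0.04 with at least 20 UMIs per gene, −0.18 with at least 200 and −0.0095 with CD9-high set by raw CD9 UMIs. It was 0.99 with at least 50 CD206 UMIs in the positive group and 1.33 with at most 4 in the low group. Summed over the list, the level was 670 CPM in CD206-positive and 656 CPM in CD206-low cells (ratio 1.02, 0.97 to 1.08). Igf1, a growth factor, stood at 18.9 against 7.54 CPM (2.50, 1.63 to 3.97), in 26 of 203 and 5 of 188 cells. The platelet factor gene Pf4 had a ratio of 1.58 (1.10 to 2.30), which was 1.22 without 1 cell, and Ednrb 1.61 (0.94 to 2.85). Lyve1, Ccl8, Cd209f and Cd209g held 0 UMIs in both groups, Cd163 held 1 and 0, and Folr2 13 and 4. A count of 0 in the 5663194 RNA UMIs of CD206-positive cells allows a level of up to 0.53 CPM (3 UMIs).

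Among 25 tested macrophage identity genes, Itgam, Mertk and Lyz2 were higher (4.35% of all genes) and 0 lower (2.58%; median log2 −0.02). Itgam, which encodes CD11b, stood at 60.7 against 33.5 CPM (1.81, 1.47 to 2.25), past 1.5-fold in 14 of 15 alternatives. Its ratio was 0.98 (0.74 to 1.28) in the CD9-middle and 2.23 (1.58 to 3.12) in the CD9-lowest tercile. The lysozyme gene Lyz2 stood at 2338 against 1541 CPM (1.52, 1.47 to 1.57), with medians of 44 and 14 UMIs per cell, and its ratio was 1.08 at equal CD9 and past 1.5-fold in 9 of 15 alternatives. Cx3cr1 and Itgax had ratios of 1.0 and 1.06. Of 16 tested genes of MHC class II and costimulation, H2-DMb2 alone (55 and 14 UMIs, 2.48) was past 1.5-fold, and H2-Aa, H2-Ab1 and H2-Eb1 had ratios of 1.06, 1.09 and 1.09.

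The antioxidant genes, which the series title concerns, showed no difference of 1.5-fold between the CD206 groups. Of the NRF2 targets 0 of 19 tested reached it, of the glutathione system 0 of 16, and of peroxiredoxins, thioredoxins and dismutases 0 of 15, with median log2 ratios of −0.11, −0.07 and 0.13. Of all genes 6.93% reached it, but of the 5264 genes with at least 200 UMIs only 82 were higher and 31 lower. Heme oxygenase Hmox1 had a ratio of 0.90, peroxiredoxin Prdx1 0.90, the cystine transporter gene Slc7a11 1.05 and Sod2 1.11. Heme and iron genes had 0 higher and 3 lower of 17 (Slc40a1, Aco1 and Flvcr1), against 4.35% and 2.58% of all genes. Aco1, the iron-responsive aconitase, and Flvcr1, a heme exporter, had ratios of 0.66 (0.47 to 0.94) and 0.62 (0.49 to 0.80), and were past 1.5-fold in 7 and 9 of 15 alternatives, while Slc40a1 was at 0.45 at equal CD9.

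Of 24 tested cytokines and chemokines, 5 were at least 1.5-fold higher (Il6, Il12b, Ccl2, Ccl12 and Ccl22) and 2 lower (Il1a and Ccl7), against 4.35% and 2.58% of all genes, with a median log2 ratio of 0.07. Ccl12 and Ccl2, ligands of CCR2, stood at 45.7 against 21.5 CPM (2.13, 1.64 to 2.78) and 44.1 against 26.5 CPM (1.66, 1.31 to 2.13), each from few cells (34 and 27 cells, and 57 and 26 cells). Il12b, a subunit of interleukin-12 and interleukin-23, had a ratio of 2.16 (1.91 to 2.46), 1.55 without the 1 cell that gave 22.04% of its UMIs. Il6 had 1.59 (1.24 to 2.05), and 1.19 without 1 cell. Ccl7 had 114 UMIs in each group (0.63, 0.48 to 0.83), and without 1 cell 1.24. Il1b and Tnf had ratios of 1.21 and 0.98. Of 19 tested interferon-stimulated genes, 2 were higher and 0 lower: Ifit1 at 378 against 224 CPM (1.69, 1.55 to 1.83) and Cxcl9 (2.15, 1.59 to 2.94) from 14 and 10 cells. With CD206 ranked within RNA deciles Cxcl9 had a ratio of 0.439 and Ifit1 1.06.

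Of 19 tested growth factor and matrix genes, Igf1 was higher and Gdf15, Hbegf and Mmp19 were lower, against 4.35% and 2.58% of all genes, with a median log2 ratio of −0.11. Glycolysis (0 of 17) and immediate-early and heat-shock genes (0 of 19) held no gene past 1.5-fold. A further list of adhesion genes had been drawn from those higher in CD9-low cells of these same data, and of its 5 tested members Npnt was higher and Fat3 and St5 were lower.

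**Figure D4:**
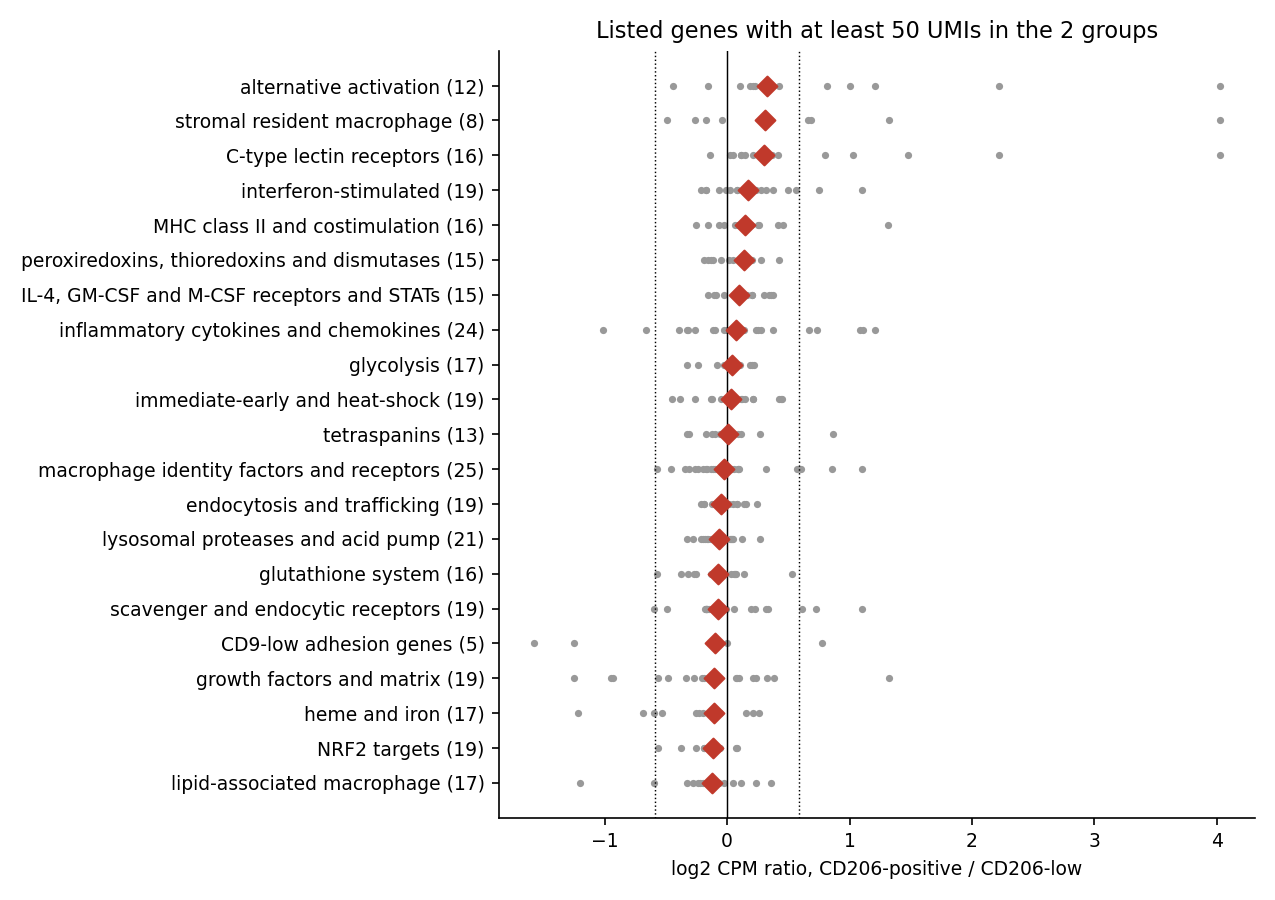
log2 CPM ratio of CD206-positive over CD206-low cells for the tested genes (grey points) of each gene list, with the list's median (red diamond), the number tested in brackets and dotted lines at 1.5-fold. The medians run from −0.12 for lipid-associated genes to 0.33 for alternative activation, and Mgl2 lies apart at 4.03.

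Markers of other cells differed in part between the groups. Of 17 dendritic cell markers 8 were tested, with Dpp4, Ccr7 and Il4i1 at least 1.5-fold higher (4.35% of all genes) and Cd24a lower (2.58%). Their median log2 ratio was 0.35, and −0.13 at equal CD9. Their summed level was 259 CPM in CD206-positive and 248 CPM in CD206-low cells, and per cell it ranged from 0 to 1539 CPM (median 199) and from 0 to 1132 CPM (median 177). Ccr7, the lymph node homing receptor, had a ratio of 2.63 (1.92 to 3.66), 1.88 without 1 cell that gave 22.9% of its UMIs, and Dpp4 1.67 (1.12 to 2.56), 1.19 without 1 cell. The defining genes Flt3, Cd209a, Xcr1 and Clec9a held 26 and 9, 12 and 1, 33 and 19, and 36 and 21 UMIs. Without the 10% of CD9-high cells richest in dendritic cell RNA, the ratio of Mrc1 was 4.54, of Mgl2 14.02, of Ccr2 3.41 and of Itgb8 0.28.

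Of 12 monocyte markers 4 were tested, with Ccr2 and Spn higher (4.35% of all genes) and 0 lower (2.58%). Their summed level was 128 against 79.6 CPM and ranged from 0 to 1025 and from 0 to 715 CPM per cell. Ly6c2, the defining gene of classical monocytes, held 1 and 3 UMIs, and Plac8 41 and 2, while Hp and Fn1 held 1 and 0. Spn had a ratio of 1.54 (1.05 to 2.30), and the list's median log2 ratio was 0.34, and −0.32 with CD206 ranked within RNA deciles. The part of monocyte RNA in the higher genes was not tested.

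Cycling genes were higher in all 3 tested members (4.35% of all genes), at 174 against 69.3 CPM for the list of 9 (0 to 2719 and 0 to 1405 CPM per cell, medians 32.9 and 0). Besides Mki67, Top2a (3.99) and Stmn1 (2.35) were past 1.5-fold, and 1 cell gave 37.4% and 24.1% of their UMIs, with ratios of 2.26 and 1.63 without it. With CD206 ranked within RNA deciles Mki67, Stmn1 and Top2a had ratios of 1.07, 1.08 and 0.79, and with at least 50 CD206 UMIs the list's median log2 ratio was −0.073. Without the 10% of CD9-high cells richest in cycling RNA, Mrc1 had a ratio of 5.601, Mgl2 15.7 and Smc2 2.36.

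Hormone RNA of endocrine cells was present in both groups, at 2185 and 2306 CPM over 13 genes (359 to 76679 and 289 to 60679 CPM per cell). Of 10 tested, Ppy (ratio 4.46) and Pyy (1.71) were higher (4.35% of all genes) and Sst (0.04) lower (2.58%). Single cells gave 73.3%, 47.7% and 43.4% of their UMIs, and without that cell Ppy had a ratio of 0.73 and Pyy 0.59. Their part in other results was not tested, and without the 10% of CD9-high cells richest in endocrine and acinar RNA Mrc1 had a ratio of 4.28.

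Lists of other lineages held little. T cell markers reached 568 and 656 CPM through Il7r (3189 and 2324 UMIs), whereas Cd3d and Cd3e held 0 in CD206-positive and 3 and 4 UMIs in CD206-low cells. B cell markers stood at 102 and 105 CPM, mostly from Ighm, with 1 of the 9 markers at 0, and neutrophil markers at 182 and 152 CPM, mostly from Il1r2 and Csf3r, with S100a8, Retnlg, Ly6g and Lcn2 at 0. NK cell (2.65 and 5.03 CPM), mast cell and basophil (4.06 and 1.96 CPM), endothelial (23.5 and 17.3 CPM), fibroblast (4.24 and 10.3 CPM) and acinar (0.883 and 2.79 CPM) lists were low, and over single cells the endothelial sum reached 1009 and 446 CPM and the fibroblast sum 254 and 877 CPM. Of their members, 2 neutrophil, 1 T cell, 1 B cell and 1 endothelial marker were tested. From the NK cell, mast cell and basophil, fibroblast and acinar lists 0 were tested. Of those tested 0 differed by at least 1.5-fold, which leaves most of these markers uncompared gene by gene. Summed over the list, the fibroblast ratio was 0.41 (0.23 to 0.70). It was 0.53 (0.25 to 1.11) for NK cell, 2.08 (0.86 to 5.73) for mast cell and basophil and 0.32 (0.085 to 1.01) for acinar lists.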

How the data were processed

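Each deposited value is a count of unique molecular identifiers per gene or antibody tag and barcode, produced by the authors (Cell Ranger 8.0.1 per the file headers, build mm10 per the submitters' processing notes). The counts were not normalized by the authors. There were 2237 barcodes over 32285 genes and 2 antibody tags, and 2215 barcodes passed the cell filters (median 19352 RNA UMIs over all barcodes). Of 40 symbols shared by several gene IDs, the ID with more UMIs kept the symbol. Antibody barcodes were taken from the deposit, and promoter sequences from RefSeq.

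UMIs were summed over the cells of a group (5663194 CD206-positive, 3677202 intermediate and 3578769 CD206-low) and scaled to 1000000. Ratios of sums have exact conditional binomial 95% intervals, sums Poisson and shares Clopper-Pearson intervals, all for counting error only. Genes with at least 50 UMIs in both groups together were compared, and a ratio of 1.5 either way was called. The ratio step was tested on simulated data. Thinning drew 5000 UMIs per cell with a fixed seed. Doublets were kept: Scrublet in scanpy 1.11.5 marked 7 cells (0.316%), under the 0.5% taken as a working call, so an alternative removed the 40 highest scores (9 positive, 5 low). Python 3.11.15, numpy 2.4.6, scipy 1.17.1 and pandas 2.3.3 were used.

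Named genes were, with at least 100 UMIs and no cell over 20% of them, the 15 with the highest lower bound and the 15 with the lowest upper bound, with ribosomal protein, mitochondrial, acinar and endocrine genes left out, and from each of 35 lists at most 4 per direction past 1.5-fold with at least 100 UMIs. Listed genes outside this rule are named to account for counts, as known examples or as defining markers, after their values were seen. The groups, members and lists were chosen with earlier results of these data known. The 18 alternatives changed cut-offs, gates, weights, cells left out and the UMI minimum, and 1 of them, leaving out cells rich in cycling RNA, was chosen after seeing the data. Values of 1 of the named genes are not reported here.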

Additional observations from a re-analysis of the deposited data

Results flagged for a closer look

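Among the named genes there were 8 cases of opposite direction between CD9 terciles. In each, a gene 1.5-fold or more apart between the CD206 groups in CD9-high cells differed by as much the other way in another tercile. Nectin1 is not counted: its ratio was 3.44 in CD9-high and 0.164 in CD9-lowest cells, there on 1 UMI in positive and 28 in low cells. None of these differences was tested, since each tercile is 1 set of cells from 1 pool. Ccl12, a CCR2 ligand, had a log2 ratio of 1.09 in CD9-high and −0.65 in CD9-middle cells. The chemokine gene Ccl22 had 1.21 and −0.71, and Ccl7 −0.66 and 2.53. The cytokine subunit gene Il12b had 1.11 in CD9-high, −0.76 in CD9-middle and −0.92 in CD9-lowest cells. Against CD9-lowest cells, Ccr7 had 1.39 and −0.72, and H2-M2 1.57 and −0.61. The hormone gene Pyy had 0.77 in CD9-high and −1.24 in CD9-middle cells. A single cell gave over 20% of the CD9-high UMIs of Ccl22, Ccl7, Ccr7, Il12b and Pyy.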

How the results depend on the processing

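No paired analysis was possible because the labels give no replicate numbers and all cells come from 1 pooled sample. Depth limits genes with few UMIs, and CD206-low cells are few where CD9 is highest (16 cells in the upper quintile, against 70 positive cells), so weighted ratios rest on them. The ratio of Mrc1 was 7.0 with at least 50 CD206 UMIs, 7.49 with CD9-high set by raw CD9 UMIs and 7.17 with C1q at 4000 CPM or more, and between 4.02 and 6.19 under the other 12 alternatives. Genes at least 1.5-fold higher numbered 375 of 8612 tested in the main comparison, 567 of 8210 with at most 4 CD206 UMIs in the low group, and 585 of 8612 at equal CD9. With at least 20, at least 200 and no minimum of UMIs they numbered 796 of 10439, 82 of 5264 and 1701 of 13992. Those lower numbered 486, 31 and 2006 of the same totals. At equal CD9 the lower genes numbered 398 of 8612, against 222 in the main comparison. The median log2 ratio of NRF2 targets was −0.0095 and of inflammatory genes −0.16 with at most 4 CD206 UMIs. With the highest CD9 quintile, inflammatory genes had 0.43 and MHC class II genes 0.011. Without cells rich in endocrine RNA inflammatory genes had −0.094, and at equal CD9 lipid-associated genes −0.23. Among results past 1.5-fold, direction was reversed, as log2 ratios, with at least 50 CD206 UMIs for the cycling list's median (−0.073), Ccl7 (0.12), Ppy (−0.30), Pyy (−1.81), Stmn1 (−0.93) and Top2a (−0.52). With CD206 ranked within RNA deciles it was reversed for Cxcl9 (−1.19), Ppy (−0.23), Pyy (−1.24), Spn (−0.11) and Top2a (−0.34). Raw CD9 UMIs reversed Ccl7 (0.68) and Il12b (−0.11), the highest CD9 quintile Ccl7 (1.15), Ppy (−0.66) and Pyy (−1.47), and C1q at 4000 CPM Ccl7 (0.16). Cd9, within 1.5-fold throughout, had 0.12 in the main comparison, −0.05 at equal RNA depth and −0.12 at equal CD9. Equal CD9 reversed Ccl7 (0.026), Dpp4 (−0.13) and Plxna4 (0.17). Leaving out cells rich in endocrine RNA reversed Ppy (−0.25), and leaving out cells rich in cycling RNA, chosen after seeing the data, Ppy (−0.42), Pyy (−0.68), Stmn1 (−0.11) and Top2a (−0.92). The cause of these changes was not tested. List medians within 1.5-fold also crossed 0: with CD206 ranked within RNA deciles monocyte markers had −0.32, interferon-stimulated genes −0.14 and dendritic cell markers −0.14, and in all 48 of 468 list medians had the other sign, in 18 lists, the cycling list included. Of 870 values of the 58 named genes over the alternatives, 649 stayed within the main interval, 197 moved outside it and 24 were reversed. Of the 15 higher genes 10, and of the 15 lower genes 9, were past 1.5-fold under every one of 15 alternatives run on them.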
